A study of Mus musculus with 28 samples.

Results

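The 10 genes described here encode the core extracellular and membrane parts of the transforming growth factor beta (TGF-beta) system: the 3 ligands Tgfb1, Tgfb2 and Tgfb3, the 4 latent TGF-beta binding proteins Ltbp1, Ltbp2, Ltbp3 and Ltbp4, and the receptors Tgfbr1, Tgfbr2 and Tgfbr3. They were taken by symbol from a deposited expression table of 23235 rows, 23015 of them distinct, and each symbol was found. The table holds RNA sequencing of 14 populations that a cell sorter separated from the back skin of mice at postnatal day 5, with 2 libraries per population and 28 in all. Its values are FPKM, the fragments mapped to a gene per kilobase of its transcripts, scaled to the size of the library, so levels of different genes can be set side by side on a per-length scale.

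TGF-beta is secreted in a latent form, held by its own propeptide and, in most cells, tied by a latent binding protein to the extracellular matrix. Integrins, proteases or thrombospondin release the ligand, which binds the type II receptor Tgfbr2. That receptor then recruits and phosphorylates the type I receptor Tgfbr1, and Smad proteins carry the signal to the nucleus. The co-receptor Tgfbr3, also called betaglycan, presents ligand and is known above all for its binding of TGF-beta 2. In the hair follicle, TGF-beta 2 from the dermal papilla is known as a signal to hair follicle stem cells at the start of a new hair cycle.

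All mice were 5 days old and of a background mixed from the strains FVB/N, C57BI/6J and CD1. From the K14-H2BGFP line, which also carried Lef1-RFP, came 8 populations. GFP+ cells of the epidermal preparation (Epi), GFP-high outer root sheath cells (ORS), GFP-low matrix cells (Mx) and GFP-low/Lef1-RFP+ transit amplifying matrix cells (TAC) are keratinocytes. The line further gave Lef1-RFP+/CD117+ melanocytes (Mc), Lef1-RFP+/CD117-/ITGA9- dermal fibroblasts (DF), Lef1-RFP+/ITGA9-high dermal papilla cells (DP) and a mixture of cells negative for these labels (Neg). Papilla cells were also divided by hair type, again with Lef1-RFP: GFP- (ZZ-DP) and GFP+ (G/AA-DP) cells of the Sox2-GFP line, and GFP- (G-DP) and GFP+ (AA/ZZ-DP) cells of the Crabp1-GFP line. G, AA and ZZ are the labels' own abbreviations. From the K14-RFP Sox9-GFP line came Sox9-GFP+ precursors of bulge stem cells (HF-SC) and the Sox9-GFP- remainder of the outer root sheath (HF-ORS), both K14-RFP-high and ITGA6-high. No Lef1-RFP genotype is given for these last populations. The reporters follow promoters, so a gate marks reporter protein and not the gene's RNA. The labels do not say whether the 2 libraries of a population came from separate mice, so p-values measure only the spread between these libraries, which may be technical.

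Replicates were correlated over the 15052 genes that reached 1 FPKM in 2 or more libraries. The 2 libraries of a population correlated at r = 0.884 (G-DP) to 0.966 (ORS) on the log2(FPKM + 1) scale. Over the whole table, 10951 to 12497 genes per library reached 1 FPKM. The summed level of 6 keratinocyte markers was 1126 to 24862 FPKM in the 6 keratinocyte populations and 41.3 and 47.1 FPKM in DP. It was higher in Neg (1994 and 1279), DF (516 and 143) and G-DP (129 and 308) than in DP. The 6 dermal papilla markers summed to 1118 to 2485 FPKM in the 5 papilla sorts. Among the gate genes, Sox9 stood at 182 and 162 FPKM in HF-SC against 20.9 and 28.8 in HF-ORS, as labelled. Sox2 did not separate the Sox2-GFP sorts: it was 4.87 and 0.0891 FPKM in the GFP- ZZ-DP libraries and was listed at 0 and at 4.81 in the GFP+ G/AA-DP libraries. Melanocyte markers, 10352 to 14136 FPKM in sum in Mc, were also present in both DF libraries (1235 and 1102), both G-DP libraries (872 and 674), both Neg libraries (577 and 719), ZZ-DP replicate 2 (631) and both TAC libraries (241 and 143), against 13.1 and 19.8 in DP.

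Tgfb2 and Ltbp1 were the ligand and the binding protein with the widest range of FPKM among those with a promoter window in the RefSeq table (GRCm38.p6), which matched 8 of the 10 genes. The sequence upstream of an annotated transcript start is therefore shown for each, 5′ to 3′ on the gene's strand. Tgfb2 lies on chromosome 1 from 186622787 to 186709697, minus strand, and its window is chr1:186705990-186706239. That window lies inside the annotated gene, before the start of a transcript that begins downstream of the gene's first base. Ltbp1 lies on chromosome 17 from 75005480 to 75392512, plus strand, and its window is chr17:75005279-75005479, which stops before the first annotated base of the gene. Capitals mark matches, on either strand, to the TATA box letters TATAAA, the full cyclic AMP response element TGACGTCA, the Smad-binding letters CAGAC or the core ACAAAG bound by Lef1 and its relatives.
Tgfb2: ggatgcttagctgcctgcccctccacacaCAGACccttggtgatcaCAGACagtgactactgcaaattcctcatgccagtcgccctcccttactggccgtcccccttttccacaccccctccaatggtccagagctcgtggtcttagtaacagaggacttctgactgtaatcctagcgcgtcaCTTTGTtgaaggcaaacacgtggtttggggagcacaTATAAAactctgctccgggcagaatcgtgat
Ltbp1: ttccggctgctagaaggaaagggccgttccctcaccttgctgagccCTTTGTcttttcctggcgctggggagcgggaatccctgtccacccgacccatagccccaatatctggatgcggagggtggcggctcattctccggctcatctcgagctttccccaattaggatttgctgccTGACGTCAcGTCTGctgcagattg
TATAAA began 31 bases before the start of the Tgfb2 transcript used for its window, and 12.4% of 32851 RefSeq windows of 250 upstream bases hold it. TGACGTCA began 73 bases before the start of the Ltbp1 transcript used for its window and occurs in 1.55% of windows. CAGAC occurred at 2 places in the Tgfb2 window and 1 in that of Ltbp1, but 42.2% of all windows hold it. ACAAAG occurred 1 time in each and in 16.5% of windows. Another Ltbp1 window, chr17:75178531-75178780, lies inside the gene and is not printed. It held no TGACGTCA, 2 matches to CAGAC and 1 to ACAAAG. The Tgfb1 window held none of these letters and 5 copies of GGGCGG, the GC box, which 32.7% of windows hold. These are matches of letters, and the files hold no measure of binding.

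Tgfb1 (chromosome 7, 25687002 to 25705077, plus strand) was the flattest ligand. Its level ranged from 2.35 to 19.3 FPKM over the 28 libraries with a median of 8.49. The HF-SC libraries held 15.7 and 14.9 FPKM, the HF-ORS libraries 19.2 and 9.34, and the Neg libraries 19.3 and 7.83. The lowest levels were in G-DP (2.70 and 2.57) and AA/ZZ-DP (2.71 and 2.86). Ordered by mean, 11 of 13 neighbouring populations had overlapping replicate ranges, so most of this order does not exceed the spread between libraries. Replicate 1 was the higher library in 12 of 14 populations. By limma it was called in 0 of the 10 comparisons below, and 1 of them, Mc against DF, had an unadjusted p under 0.05 (adjusted p = 0.115).

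Tgfb2 was highest in the bulge stem cell precursors. It stood at 58.3 and 50.7 FPKM in HF-SC, 54.5 ± 5.39 (SD, n = 2), and no library of another population exceeded 22.1. The next levels were those of ZZ-DP (15.8 and 22.1), G/AA-DP (14.5 and 20.4) and ORS (16.1 and 12.8). The lowest were Mc (1.59 and 2.32), HF-ORS (1.04 and 3.92) and TAC (2.41 and 2.81). HF-SC thus stood clear of every other population, while 11 of 13 neighbouring pairs in the order overlapped.

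Tgfb3 (chromosome 12, 86056743 to 86079041, minus strand) had the same first population and a steeper order. HF-SC held 87.3 and 69.8 FPKM, ORS 39.99 and 33.4, and all remaining libraries lay at or below 29.6. The 5 papilla sorts held 10.03 to 29.6 FPKM with a median of 19.0, DF 12.7 and 14.3, and Neg 23.1 and 15.3. At the other end were TAC (2.13 and 0.591) and Mc (0.357 and 0.690). Both HF-SC libraries exceeded both ORS libraries, and both ORS libraries exceeded all others. Tgfb3 overlaps Ttll5, a tubulin-modifying enzyme gene on the opposite strand, and since use of strand is not stated their reads cannot be told apart. Ttll5 stood at 18.2 and 14.6 FPKM in HF-SC and 13.03 and 7.71 in HF-ORS (limma log2 difference 0.65 ± 0.33, adjusted p = 0.333), and its part in the Tgfb3 values was not tested.

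**Figure D1:**
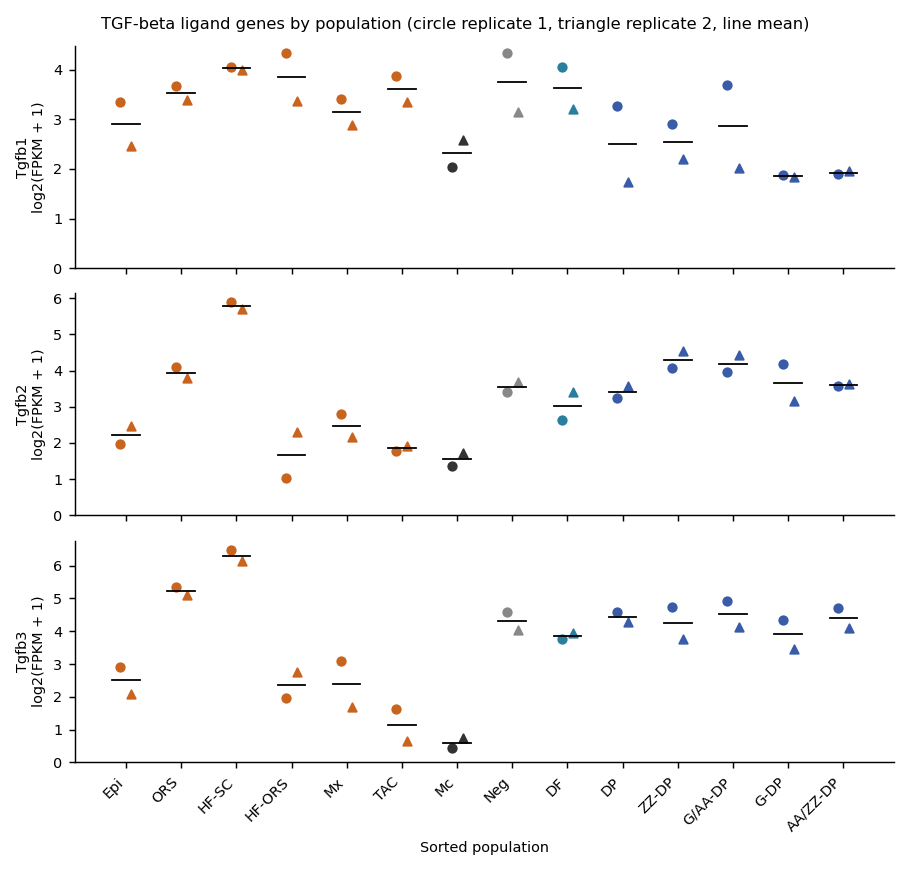
Levels of the 3 ligands in each population, as log2(FPKM + 1) on the vertical axis of each panel, with a circle for replicate 1, a triangle for replicate 2 and a line at their mean; keratinocyte populations are orange, Mc black, Neg grey, DF teal and papilla sorts blue. Tgfb2 and Tgfb3 are highest in HF-SC, above all 26 other libraries, while Tgfb1 stays between 2.35 and 19.3 FPKM.

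The ligands also made up different totals. The 3 ligands summed to 161 and 135 FPKM in HF-SC and to 67.8 and 55.7 in ORS, against 5.07 and 8.04 in Mc, 18.3 and 12.5 in TAC and 23.1 and 19.1 in HF-ORS. Tgfb1 made up 74.1% ± 1.64 (SD, n = 2) of the sum in TAC, 62.1% ± 0.740 in Mc and 65.9% ± 24.1 in HF-ORS. Tgfb3 made up 59.5% ± 0.777 in ORS, 57.7% ± 0.776 in DP and 52.8% ± 1.83 in HF-SC. The HF-ORS share rests on replicates at 83.0% and 48.9% and is loosely set.

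Ltbp1, which ties latent TGF-beta to fibrillin-rich matrix, was highest in the papilla sorts. In the DP libraries it stood at 336 and 363 FPKM, and in the other 4 papilla sorts between 164 and 280.1. DF followed with 51.3 and 74.2 FPKM, then HF-SC with 37.1 and 41.9 and ORS with 19.3 and 16.8. All 10 papilla libraries lay above the other 18, whose highest value was the 74.2 of DF. The lowest levels were Mc (0.216 and 1.26) and HF-ORS (0.685 and 2.997). Only 4 of 13 neighbouring populations overlapped, the fewest of the 10 genes, so its order is the best resolved.

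Ltbp4 ran in the other direction. This binding protein, known for elastic fibre assembly, was highest in HF-ORS (128 and 89.5 FPKM) and HF-SC (102 and 70.3), followed by Epi (60.6 and 40.4) and ORS (57.5 and 40.4). In the 10 papilla libraries it lay between 3.72 and 22.8 FPKM, and in Mc at 1.76 and 0.529. The 12 keratinocyte libraries, at 20.2 to 128, overlapped the papilla range only through DP replicate 1, at 22.8. Ltbp4 lies on chromosome 7 from 27305140 to 27339720, minus strand, and replicate 1 was the higher library in 12 of 14 populations.

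Ltbp3 (chromosome 19, 5740900 to 5758536, plus strand), known for its part in bone and tooth, was broadly present. It ranged from 5.30 FPKM (Epi replicate 2) to 58.7 (ZZ-DP replicate 1). ORS held 56.4 and 44.4 FPKM, HF-SC 46.7 and 35.6 and Epi 11.3 and 5.30. Replicates differed widely, for example 58.7 and 24.4 in ZZ-DP and 39.7 and 15.2 in HF-ORS, and replicate 1 was higher in 13 of 14 populations. With 12 of 13 neighbouring pairs overlapping, most of its order is not resolved, and only TAC and Mc were neighbours without overlap.

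Ltbp2 (chromosome 12, 84783212 to 84876558, minus strand), a fibrillin-binding protein that does not bind latent TGF-beta, had the lowest levels of the 10 genes. It reached 1 FPKM in 7 of 28 libraries and was listed at 0 in 3, namely TAC replicate 1, G-DP replicate 1 and Mc replicate 2. HF-SC held 5.47 and 2.30 FPKM and DF 1.95 and 2.07. Both HF-SC libraries again exceeded all 26 others.

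**Figure D2:**
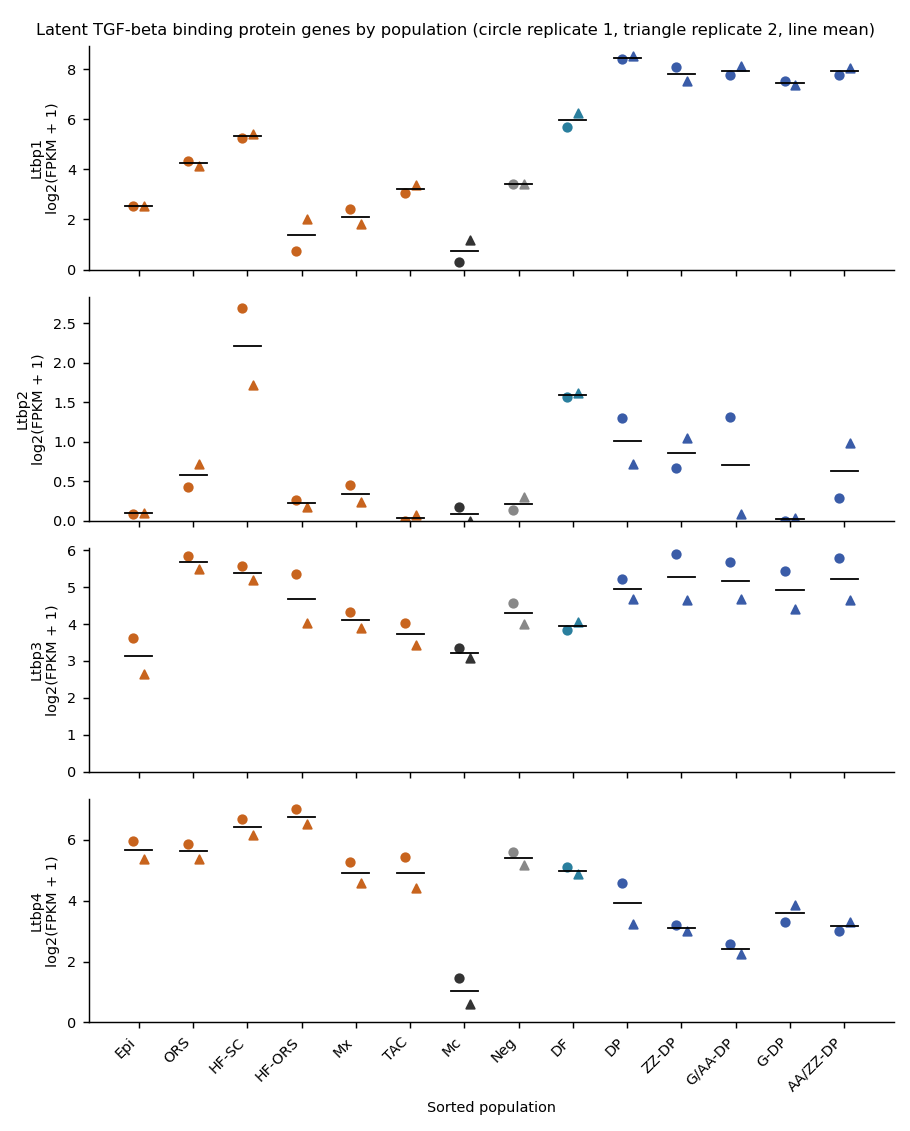
Levels of the 4 latent TGF-beta binding proteins in each population, as log2(FPKM + 1), with replicate 1 as a circle, replicate 2 as a triangle and a line at the mean, coloured by kind of population. Ltbp1 is highest in the 5 papilla sorts (164 to 363 FPKM), where Ltbp4 is low (3.72 to 22.8 FPKM), and Ltbp2 stays at or below 5.47 FPKM.

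As shares of the summed binding protein level, Ltbp1 made up 80.4% to 88.1% on average in the 5 papilla sorts, 56.6% ± 7.62 (SD, n = 2) in DF and 23.7% ± 6.01 in HF-SC. In HF-ORS it made up 1.59% ± 1.68. Ltbp4 made up 79.4% ± 0.633 in Epi and 79.4% ± 5.05 in HF-ORS, and Ltbp3 made up 81.1% ± 0.372 in Mc. The sums themselves ran from 11.3 and 9.33 FPKM in Mc to 397.0 and 396.6 in DP.

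**Figure D3:**
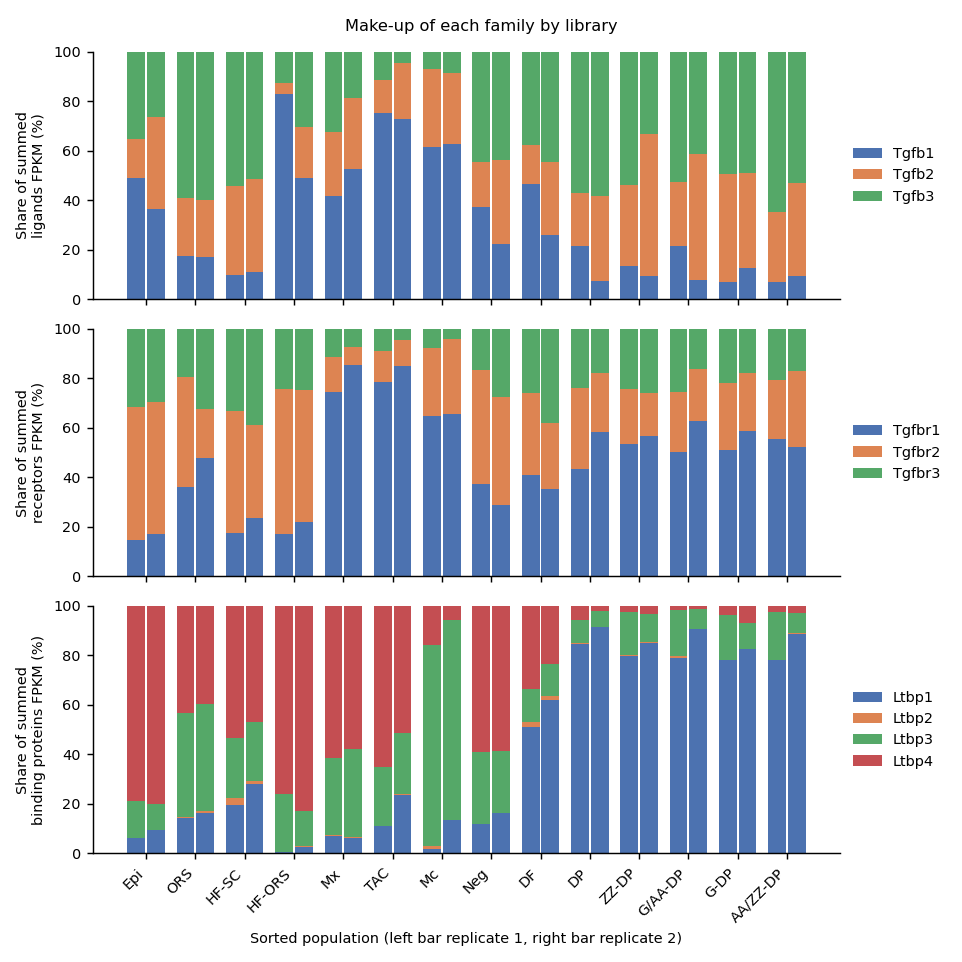
Share of the summed FPKM taken by each gene within the ligands, the receptors and the binding proteins, as a stacked bar per library from 0 to 100%, with libraries in population order. Ltbp1 fills most of the binding protein bar in the papilla sorts (80.4% to 88.1% on average), Ltbp4 in Epi and HF-ORS (79.4% each), and Tgfbr1 most of the receptor bar in Mx and TAC.

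Tgfbr1 (chromosome 4, 47353222 to 47414926, plus strand), the type I kinase receptor, was highest in the papilla. Its 10 papilla libraries held 46.3 to 88.4 FPKM with a median of 64.4, above all 18 others. DF held 24.9 and 40.4 FPKM, Mc 20.0 and 33.8, and Epi, the lowest, 7.71 and 7.63. Replicate 2 was the higher library in 13 of 14 populations, the reverse of Ltbp3. The 5 papilla sorts overlapped among themselves and cannot be ordered.

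Tgfbr2 (chromosome 9, 116087695 to 116175363, minus strand), the receptor that binds ligand first, was set apart by the matrix. Mx held 2.27 and 1.68 FPKM and TAC 2.22 and 2.39, and every other library lay at 6.51 or above. HF-ORS held the highest mean, with 43.4 and 38.7 FPKM, followed by AA/ZZ-DP (27.3 and 50.1) and DP (34.9 and 34.0). Epi held 28.3 and 23.6 FPKM and ORS 14.8 and 6.51. The matrix populations thus lay apart from the other 12, while 10 of 13 neighbouring pairs overlapped.

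Tgfbr3 (chromosome 5, 107106567 to 107289629, minus strand) repeated the low matrix level. It stood at 1.85 and 1.78 FPKM in Mx, 1.61 and 0.990 in TAC and 2.43 and 2.18 in Mc, and at 6.37 or more in all other libraries. The papilla sorts held 19.7 to 32.4 FPKM, HF-SC 16.9 and 21.5, HF-ORS 18.0 and 18.2, and DF 15.8 and 43.7. The DF replicates differed more than any other pair for this gene.

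**Figure D4:**
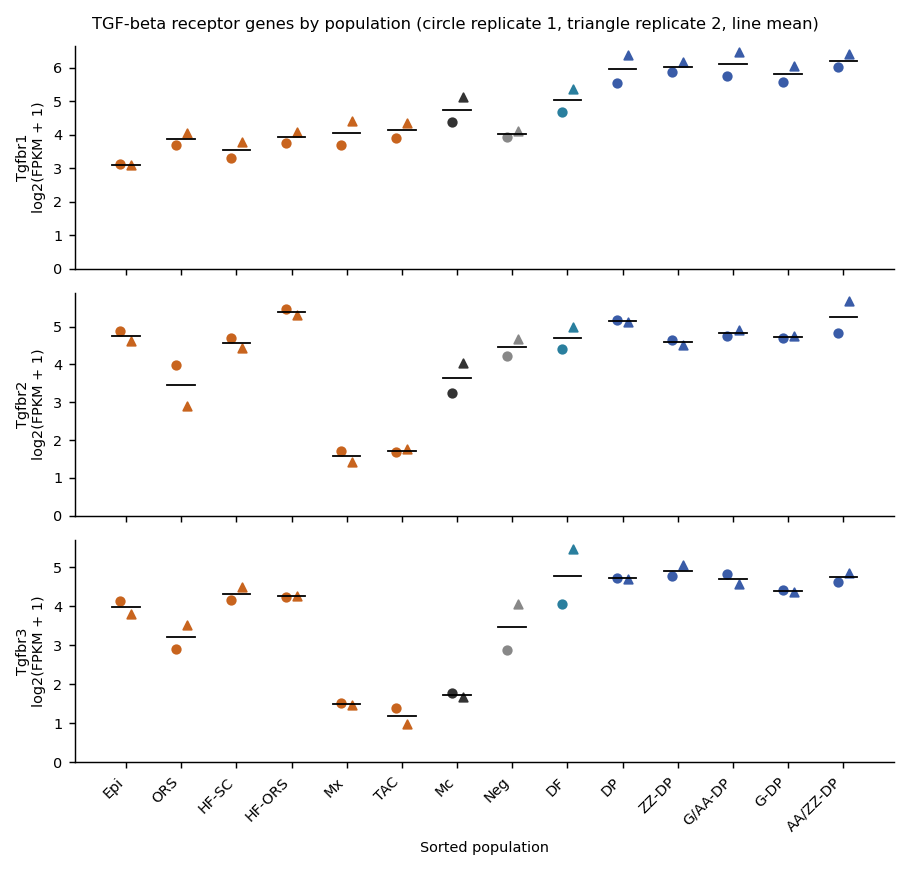
Levels of the 3 receptors in each population, as log2(FPKM + 1), with replicate 1 as a circle, replicate 2 as a triangle and a line at the mean, coloured by kind of population. Tgfbr1 is highest in the papilla sorts (46.3 to 88.4 FPKM), and Tgfbr2 and Tgfbr3 are lowest in Mx and TAC, at or below 2.39 and 1.85 FPKM.

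The ratio of the type I to the type II receptor followed from these levels. Tgfbr1 over Tgfbr2 was 5.24 and 12.0 in Mx and 6.38 and 8.11 in TAC. It was 0.273 and 0.323 in Epi, 0.289 and 0.415 in HF-ORS and 0.361 and 0.624 in HF-SC. The papilla sorts lay between 1.32 and 3.22, and ORS at 0.809 and 2.39, where its replicates stood on either side of 1.

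Levels that never overlap between such sets were also found for a small share of all genes in this table. Of the 15052 genes tested, 2.78% had all 10 papilla libraries above the other 18, as 2 of the 10 genes here had (Tgfbr1 and Ltbp1). All 4 matrix libraries lay below the other 24 for 0.751% of genes and for 2 of the 10 (Tgfbr2 and Tgfbr3). Both HF-SC libraries lay above the other 26 for 1.97% of genes and for 3 of the 10 (Tgfb2, Tgfb3 and Ltbp2).

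Differences between populations were tested within a mouse line with limma on log2(FPKM + 1) over all 15052 genes, with calls made at an adjusted p below 0.05 and a log2 difference of 1 or more. Fold values below are ratios of mean FPKM, and log2 differences are on the log2(FPKM + 1) scale, which understates changes of low genes. In sorted bulk RNA, fewer cells of a type and less RNA per cell cannot be told apart.

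The Sox9-GFP+ bulge precursors were compared with the rest of the outer root sheath. Of the 10 genes, 4 were higher in HF-SC and none lower, where 2.66% of all genes tested were higher and 1.73% lower. Tgfb2, at 58.3 and 50.7 FPKM against 1.04 and 3.92, was 21.98-fold higher (log2 difference 4.13 ± 0.41 SE, adjusted p = 3.7e-06). Tgfb3, at 87.3 and 69.8 against 2.90 and 5.83, was 18.0-fold higher (3.94 ± 0.49, adjusted p = 5.02e-05). Ltbp1, at 37.1 and 41.9 against 0.685 and 2.997, was 21.5-fold higher (3.96 ± 0.35, adjusted p = 1.13e-06). Ltbp2, at 5.47 and 2.30 against 0.200 and 0.127, was also higher (1.99 ± 0.37, adjusted p = 0.00253), a call that was lost with a pseudocount of 5 and when that mouse line was fitted alone (adjusted p = 0.202). In each of these 4 genes both HF-SC libraries exceeded both HF-ORS libraries. They were picked by their calls, so this is not separate evidence. The remaining ligand and the receptors did not pass: Tgfb1 differed by 0.17 with a 95% interval of -1.01 to 1.36, Tgfbr2 by -0.82 (-1.54 to -0.10, adjusted p = 0.216) and Tgfbr3 by 0.07 (-0.74 to 0.88). The median log2 difference was 0.44 over the 10 genes and 0 over all genes.

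Among genes that release or hold latent TGF-beta, 2 of 14 tested were higher in HF-SC and none lower. Itgb8, the beta subunit of an integrin that activates latent TGF-beta, stood at 21.1 and 9.96 FPKM against 0.182 and 0.321 in HF-ORS (log2 difference 3.64 ± 0.47, adjusted p = 6.85e-05). Mmp2, a matrix metalloproteinase, stood at 32.6 and 17.8 against 1.63 and 6.05 (2.55 ± 0.57, adjusted p = 0.0114). Of 9 co-receptors and extracellular inhibitors only Bgn, the TGF-beta-binding proteoglycan biglycan, was called, at 95.05 and 109 FPKM against 22.4 and 38.4 (1.76 ± 0.42, adjusted p = 0.0182). Of 14 Smads and Smad regulators 0 were called by limma, and 1 had an unadjusted p under 0.05. Of 21 known TGF-beta response genes, 2 were higher and 2 lower. Among the higher was the adaptor gene Nedd9, at 69.0 and 83.7 against 16.7 and 21.2 FPKM (1.96 ± 0.31, adjusted p = 0.000683). The lower ones were Tgfbi, a matrix protein named for its induction by TGF-beta, at 66.4 and 70.7 against 193 and 253 (-1.67 ± 0.42, adjusted p = 0.0248), and Tmeff1, a membrane protein, at 0.749 FPKM and listed at 0 against 2.08 and 2.59 (-1.33 ± 0.38, adjusted p = 0.0499). Tmeff1 was named after its values were seen. The response list thus held calls in both directions. Median log2 differences were 0.50 for the latency genes, -0.09 for co-receptors and inhibitors, 0.21 for Smads and 0.21 for response genes, beside 0 for all genes.

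Dermal papilla markers, 6 in all, summed to 336 and 518 FPKM in HF-SC and 28.1 and 62.4 in HF-ORS. Nearly all of this was Sostdc1, a BMP and WNT antagonist that keratinocytes also express (331 and 515 against 23.4 and 58.0). Corin, a papilla protease, was at 0.117 and 0.479 FPKM in HF-SC, and Sox2 was listed at 0 in both HF-SC libraries. The 6 fibroblast markers summed to 260 and 341 FPKM in HF-SC and 184 and 293 in HF-ORS.

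In the K14-H2BGFP line the outer root sheath was set against the epidermal preparation. In ORS 4 of the 10 genes were higher and 1 lower, beside 5.35% and 4.48% of all genes. Tgfb3 stood at 39.99 and 33.4 FPKM in ORS against 6.56 and 3.23 in Epi, 7.50-fold higher (log2 difference 2.73 ± 0.49, adjusted p = 0.000541). Ltbp3, at 56.4 and 44.4 against 11.3 and 5.30, was 6.07-fold higher (adjusted p = 0.00179). Tgfb2, at 16.1 and 12.8 against 2.91 and 4.58, was 3.85-fold higher (adjusted p = 0.00794), and Ltbp1, at 19.3 and 16.8 against 4.78 and 4.83, 3.75-fold (adjusted p = 0.00204). Tgfbr2 was the gene lower in ORS, at 14.8 and 6.51 against 28.3 and 23.6 (-1.30 ± 0.35, adjusted p = 0.0161). Replicates did not overlap in any of these 5 genes, which is not separate evidence because they were picked by their calls. The Tgfbr2 call was lost without Epi replicate 1 (adjusted p = 0.140), Epi replicate 2 (0.0527) or ORS replicate 2 (0.352), and the Tgfb2 call without Epi replicate 1 (0.113) or ORS replicate 1 (0.0884).

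Of the release and latency genes 3 of 14 were higher in ORS and none lower. Itgb6, the beta subunit of the epithelial integrin that activates latent TGF-beta, stood at 27.6 and 34.2 FPKM against 6.55 and 5.70 (2.16 ± 0.36, adjusted p = 0.000246), and Itgb8 at 10.5 and 11.5 against 2.46 and 2.04 (1.89 ± 0.47). Among inhibitors, Bgn was higher (201 and 174 against 5.72 and 2.01 FPKM) and Cd109, a co-receptor that restrains TGF-beta signaling in keratinocytes, was lower (mean 18.2 against 66.2 FPKM, -1.81 ± 0.34). Of the 14 Smads and regulators only Skil, a Smad corepressor and itself a TGF-beta target, was called higher (mean 26.7 against 11.6 FPKM, 1.14 ± 0.30, adjusted p = 0.0143). The response genes held 9 higher and 3 lower of 21. Acta2, smooth muscle actin, at 36.7 and 59.1 against 0.903 and 0.192 FPKM, and Tagln, transgelin, at 52.0 and 76.1 against 1.93 and 2.31, led the higher ones. Tgfbi, at 8.06 and 5.19 against 145 and 139, and Cdkn1a, a cell cycle inhibitor, at 33.0 and 26.1 against 259 and 227, led the lower ones. The medians of the 4 lists were 0.12, 0.51, 0.23 and 1.52 in the same order, beside 0.01 for all genes and 0.69 for the 10 genes. Pericyte and smooth muscle markers, 6 genes that include Acta2, summed to 85.2 and 100.2 FPKM in ORS and 17.1 and 11.6 in Epi. The 6 fibroblast markers summed to 105 and 63.9 FPKM in ORS and 9.28 and 6.42 in Epi. Most of each sum was Dcn, the decorin gene, at a mean of 76.0 FPKM in ORS against 7.14 in Epi. The remaining fibroblast markers were low in both populations. The part of both marker sets in the differences between ORS and Epi was not tested.

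The populations labelled HF-ORS and ORS, sorted from different lines, held different levels of several of these genes. Tgfb3 was 2.90 and 5.83 FPKM in HF-ORS, 39.99 and 33.4 in ORS and 6.56 and 3.23 in Epi. Tgfbi was 193 and 253 FPKM in HF-ORS, 8.06 and 5.19 in ORS and 145 and 139 in Epi. Sox9 was 20.9 and 28.8 FPKM in HF-ORS, 60.4 and 101 in ORS and 9.06 and 10.8 in Epi. Mouse line and population cannot be told apart between HF-ORS and the others, and these values were not tested.

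The matrix was compared with the sheath that surrounds it. In Mx 4 of the 10 genes were lower than in ORS and none higher, beside 2.64% and 1.20% of all genes. Tgfb3 stood at 7.45 and 2.23 FPKM in Mx against 39.99 and 33.4 in ORS (log2 difference -2.85 ± 0.49, adjusted p = 0.00122), and Ltbp1 at 4.31 and 2.49 against 19.3 and 16.8 (-2.14 ± 0.35, adjusted p = 0.000828). The receptors Tgfbr2, at 2.27 and 1.68 against 14.8 and 6.51 (-1.88 ± 0.34, adjusted p = 0.00229), and Tgfbr3, at 1.85 and 1.78 against 6.50 and 10.5 (-1.72 ± 0.39, adjusted p = 0.0114), were lower too. No Mx library reached an ORS library in these 4 genes, which were picked by their calls, so this is not separate evidence. Tgfbr1, at 11.9 and 20.2 against 11.9 and 15.6, differed by 0.18 with a 95% interval of -0.57 to 0.92. The median log2 difference of the 10 genes was -1.51, beside 0.02 for all genes. Leaving out Mx replicate 2 left only Ltbp1 called, with adjusted p of 0.0600 for Tgfb3, 0.0534 for Tgfbr2 and 0.111 for Tgfbr3. The Tgfbr2 call was also lost without ORS replicate 1 (0.0805), and the Tgfbr3 call without Mx replicate 1 (0.0658), without ORS replicate 2 (0.206) and with a pseudocount of 5 (0.0900).

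Among the release and latency genes 3 of 14 were lower in Mx and none higher. Thbs1, thrombospondin 1, stood at 3.91 and 2.34 FPKM against 28.9 and 44.0 (-3.18 ± 0.54), and Itgb6 at 4.45 and 3.02 against 27.6 and 34.2 (-2.76 ± 0.36). Of the inhibitors 2 of 9 were higher and 1 lower. Bambi, a pseudoreceptor that blocks type I receptors, was among the higher (mean 8.62 against 0.847 FPKM, 2.30 ± 0.45), and Bgn was the lower. Dcn, decorin, a proteoglycan of fibroblasts, was higher in Mx (mean 444 against 76.0 FPKM). The 6 fibroblast markers, Dcn among them, summed to 492 and 420 FPKM in Mx against 105 and 63.9 in ORS. Dcn alone made up nearly all of the Mx sums and most of the ORS sums. The remaining fibroblast markers were low in both populations. The pericyte and smooth muscle markers, Acta2 among them, summed to 23.2 and 15.9 FPKM in Mx against 85.2 and 100.2 in ORS. The part of either marker set in the differences was not tested. Of the response genes 7 of 21 were lower, led by Acta2 and Tagln, and 1 was higher, Cdkn1a at 129.9 and 129 FPKM against 33.0 and 26.1. List medians were -0.76 for latency, -0.10 for inhibitors, 0.03 for Smads and -1.17 for response genes. Of the 14 Smads and regulators 0 were called by limma, with 1 at an unadjusted p under 0.05.

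The transit amplifying cells of the matrix did not differ detectably from Mx in these genes. limma called 0 of the 10, beside 1.27% of all genes, and 2 of the 10 had an unadjusted p under 0.05. These were Ltbp1, at 7.23 and 9.37 FPKM in TAC against 4.31 and 2.49 in Mx (1.10 ± 0.35, adjusted p = 0.181), and Tgfb3, at 2.13 and 0.591 against 7.45 and 2.23 (-1.23 ± 0.49, adjusted p = 0.352). The 95% intervals of the 10 differences ran from -2.25 to 1.83, so changes of that size are compatible with the data. Among the pathway genes Col1a1, a collagen gene in the response list and also a fibroblast marker, was the only call (mean 40.1 FPKM in TAC against 1.75 in Mx). Papilla markers summed to 38.6 and 34.6 FPKM in TAC against 29.2 and 11.3 in Mx. Fibroblast markers summed to 507 and 453 against 492 and 420. Sostdc1 and Dcn, the largest parts of the Mx sums, were lower in TAC by mean. The remaining markers of both sets were higher, such as Corin (6.83 against 0.319), Rspo3 (8.67 against 0.629) and Col3a1 (71.2 against 4.80). Their part in the Ltbp1 and Col1a1 values was not tested.

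The mesenchyme, as the mean of DP and DF, was compared with the mean of the 4 keratinocyte populations of the same line (Epi, ORS, Mx and TAC). Of the 10 genes 6 were higher in mesenchyme and none lower, beside 14.5% and 11.5% of all genes. Ltbp1 (206 against 8.63 FPKM on average) differed by 4.19 ± 0.21 on the log2 scale (adjusted p = 5.78e-12). All 3 receptors were higher: Tgfbr3 (27.5 against 6.62 FPKM, 2.28 ± 0.24), Tgfbr2 (30.0 against 10.2, 2.05 ± 0.21) and Tgfbr1 (48.5 against 13.6, 1.71 ± 0.22). Of the ligands Tgfb3 was higher (17.2 against 11.95, 1.33 ± 0.30), and Tgfb1 (-0.22 ± 0.35, adjusted p = 0.641) and Tgfb2 (0.60 ± 0.25, adjusted p = 0.0625) did not pass. Ltbp2 was called at 1.54 against 0.212 FPKM (1.04 ± 0.23), and Ltbp4, at 23.2 against 40.2 FPKM, had an adjusted p of 0.0143 but a log2 difference of -0.83, under the size limit. For 3 of the 10, Tgfbr1, Ltbp1 and Ltbp2, the lowest of the 4 mesenchymal libraries exceeded the highest of the 8 keratinocyte libraries, beside 10.6% of all genes, and for Ltbp2 these were only 0.646 and 0.644 FPKM. For Tgfb3, ORS at 39.99 and 33.4 FPKM exceeded every mesenchymal library, and Epi reached the mesenchymal range in both libraries for Tgfbr2 and in 1 for Tgfbr3. The Ltbp2 difference fell under the size limit with a pseudocount of 5 (0.32), after quantile normalization (0.64) or without DP replicate 1 (0.90), and that of Tgfb3 with a pseudocount of 5 (0.81), while Ltbp4 was called lower without DP replicate 1 (-1.16).

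The fibrillins Fbn1 and Fbn2, which anchor latent binding proteins in the matrix, led the 7 of 14 latency genes higher in mesenchyme (mean 108 against 3.26 FPKM and 35.3 against 0.716), and Itgb6 was the 1 lower (0.213 against 10.4). Inhibitors and co-receptors held 6 higher of 9, among them Bgn and the endothelial-type co-receptor Eng (11.7 against 0.635 FPKM), and 1 lower, Cd109 (5.25 against 27.3). Of 14 Smads and regulators 1 was called, the corepressor Tgif1, lower at 18.0 against 46.1 FPKM (-1.47 ± 0.24). Response genes held 8 higher of 21, led by Col1a1 (574 against 10.9 FPKM) and the collagen cross-linker Lox (37.4 against 0.540), and 2 lower, Cdkn1a and Nedd9. The 4 lists had medians of 1.06, 1.26, 0.05 and 0.62, beside -0.05 for all genes and 1.19 for the 10 genes. Collagen genes of this list also define fibroblasts.

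**Figure D5:**
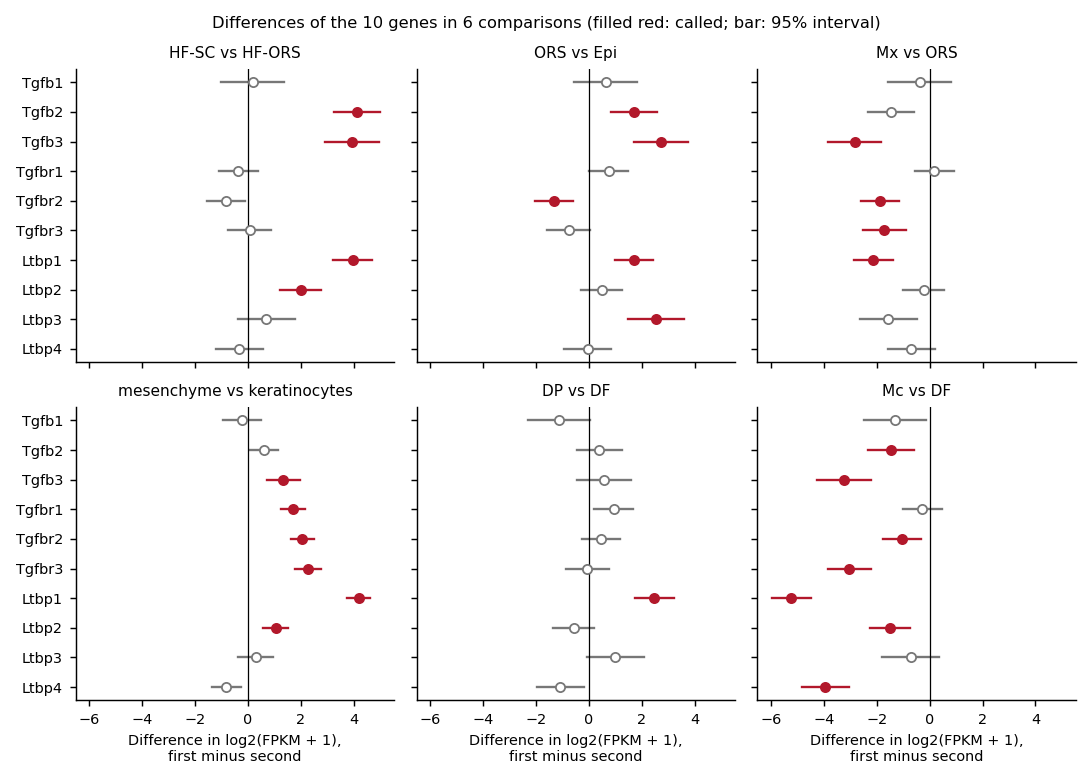
Difference of each of the 10 genes in 6 comparisons, as the log2(FPKM + 1) of the first population minus that of the second on the horizontal axis, with the 95% interval from limma as a bar and called genes in filled red. Tgfb2, Tgfb3 and Ltbp1 lie furthest to the right within the panel of HF-SC against HF-ORS (3.94 to 4.13), and Ltbp1 furthest to the left within that of Mc against DF (-5.24).

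Within the mesenchyme, papilla and fibroblast sorts were called different in 1 of the 10 genes. Ltbp1 was 5.57-fold higher in DP (336 and 363 against 51.3 and 74.2 FPKM, log2 difference 2.48 ± 0.35, adjusted p = 0.000149), beside 2.44% of all genes higher and 4.25% lower. The other 9 did not pass: Tgfbr1, at 46.3 and 82.2 against 24.9 and 40.4 FPKM, differed by 0.94 (95% interval 0.19 to 1.68, adjusted p = 0.135), and Ltbp4, at 22.8 and 8.496 against 33.6 and 28.0, by -1.07 (-1.97 to -0.18, adjusted p = 0.158). The median over the 10 genes was 0.43, beside 0.01 for all genes. Ligand differences ran from -1.13 (Tgfb1) to 0.59 (Tgfb3). With a replicate block, an alternative fit described at the end, Ltbp3 (higher in DP) and Ltbp4 (lower) were called as well. Ltbp4 was called lower without DP replicate 1 (-1.74, adjusted p = 0.0408).

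Around them, Lrrc32, also called GARP, which holds latent TGF-beta on the cell surface, and the integrin subunit Itgb3 were lower in DP (0.709 and 1.70 against 11.8 and 5.01 FPKM for Lrrc32), 2 of 14 latency genes, with none higher. Of the inhibitors Fmod, fibromodulin (mean 1.18 against 10.4 FPKM), and Cd109 were lower. Smurf1, a ubiquitin ligase that acts on TGF-beta receptors and Smads, was the 1 of 14 Smads and regulators called, higher at 25.4 against 10.5 FPKM (1.16 ± 0.34, adjusted p = 0.0419). Response genes were 5 lower and 1 higher of 21: Acta2 (9.38 and 15.0 against 99.0 and 105 FPKM) and periostin, Postn (57.4 against 358 on average), led the lower, and Cyr61, a matricellular gene, was the higher (775 against 206). Medians of the latency, inhibitor, Smad and response lists were -0.06, -0.11, 0.14 and -0.63. The 6 pericyte and smooth muscle markers, Acta2 among them, summed to 637 and 603 FPKM in DF and 44.0 and 44.1 in DP, and the melanocyte markers to 1235 and 1102 against 13.1 and 19.8. Keratinocyte markers summed to 516 and 143 FPKM in DF and 41.3 and 47.1 in DP. Papilla markers summed to 244 and 403 FPKM in DF and 2078 and 2485 in DP. Fibroblast markers summed to 2419 and 5660 FPKM in DF and 3390 and 1927 in DP. The part of any of these sets in the differences was not tested.

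Melanocytes had the lowest mean level of Tgfb2, Tgfb3, Ltbp1 and Ltbp4 among the 14 populations. Against DF, 7 of the 10 genes were lower in Mc and none higher, beside 11.5% of all genes lower and 6.67% higher. The largest differences were those of Ltbp1 (0.216 and 1.26 against 51.3 and 74.2 FPKM, -5.24 ± 0.35, adjusted p = 1.91e-09), Ltbp4 (1.76 and 0.529 against 33.6 and 28.0, -3.95 ± 0.43), Tgfb3 (0.357 and 0.690 against 12.7 and 14.3, -3.26 ± 0.49) and Tgfbr3 (2.43 and 2.18 against 15.8 and 43.7, -3.05 ± 0.39). Ltbp2, Tgfb2 and Tgfbr2 followed at -1.51, -1.47 and -1.05. Those 3 calls were lost with a pseudocount of 5, where 4 of the 10 were called. The Tgfb2 call was also lost after quantile normalization (adjusted p = 0.0530) and without Mc replicate 1 (0.114) or DF replicate 2 (0.172). The Tgfbr2 call was lost without a filter (0.0565), with the line fitted alone (0.0569) and without Mc replicate 1 (0.353) or DF replicate 2 (0.274). Tgfbr1, at 20.0 and 33.8 against 24.9 and 40.4 FPKM, differed by -0.28 with a 95% interval of -1.02 to 0.47. In the lists, 8 of 14 latency genes, 5 of 9 inhibitors and 14 of 21 response genes were lower, with list medians of -1.94, -1.60 and -2.56 beside 0.02 for all genes and -1.49 for the 10 genes. Bhlhe40, a transcription factor, was the 1 response gene higher, at a mean of 309 against 71.998 FPKM. The melanocyte markers in DF, 1235 and 1102 FPKM in sum, stand beside these values.

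The mixture of negative cells was compared with the mean of the other 7 populations of its line. Of the 10 genes only Tgfb3 was called, higher in Neg (23.1 and 15.3 FPKM, log2 difference 1.43 ± 0.37, adjusted p = 0.0268), beside 3.53% of all genes. ORS, at 39.99 and 33.4 FPKM, exceeded both Neg libraries. The call was lost without Neg replicate 1 (adjusted p = 0.531) or Neg replicate 2 (0.122), with a pseudocount of 5 (0.0630) and without the filter on low values (0.0608). Lrrc32, at 19.0 and 18.7 FPKM against 1.57 in the mean of the others, led 4 of 14 latency genes that were higher. The 6 endothelial markers summed to 114 and 167 FPKM in Neg and to at most 12.8 in the other populations of the line, and leukocyte markers to 54.0 and 71.0. In Neg the keratinocyte markers summed to 1994 and 1279 FPKM, melanocyte markers to 577 and 719, fibroblast markers to 506 and 422 and pericyte and smooth muscle markers to 456 and 476. The part of these cells was not tested.

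Papilla subtypes did not differ detectably. In G/AA-DP against ZZ-DP limma called 0 of the 10 genes, 0 had an unadjusted p under 0.05, and 0.00664% of all genes were called. The 95% intervals ran from -1.59 to 1.49, and Sox2 itself did not separate these sorts. In G-DP against AA/ZZ-DP limma again called 0, with 0 at an unadjusted p under 0.05, beside 0.505% of all genes, and the intervals ran from -1.52 to 1.32. The largest difference of the second comparison was that of Ltbp2, -0.61 ± 0.37, from values at or below 0.969 FPKM. Crabp1 stood at 630 and 421 FPKM in G-DP against 1866 and 1150 in AA/ZZ-DP (adjusted p = 0.597), and Kit, a melanocyte receptor, at 95.7 and 170 against 4.50 and 5.46. The intervals do not show that the subtypes are alike. Differences of up to about those sizes could have been missed.

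Levels of some of the 10 genes moved together across the 14 populations. Over population means of log2(FPKM + 1), Pearson's r was 0.93 for Tgfb2 with Tgfb3, 0.90 for Tgfbr2 with Tgfbr3, 0.82 for Tgfb3 with Ltbp3 and 0.80 for Tgfbr1 with Ltbp1. It was -0.72 for Tgfbr1 with Ltbp4 and -0.71 for Tgfbr1 with Tgfb1. These are descriptions over 14 points that share the same libraries, and kinds of population form groups among them.

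The nearest genes by the same measure were sought among 11187 genes that reached 5 FPKM in some population. For Tgfb2 they were Tgfb3 (0.93), Eya2 (0.88) and Ephb1 (0.87), and for Tgfb3 the homeobox gene Irx1 (0.95), Tgfb2 and Tcf7l2 (both 0.93). For Tgfb1 they were Eif4ebp1 (0.91), Ddit4 and Vwa1 (both 0.89). Ltbp1 was closest to the prolactin receptor gene Prlr (0.98), Fgfr1 and Plekhg2 (both 0.97), and Tgfbr1 to Ncoa7, Pkd2 and Zfp354a (0.98 each). Tgfbr2 and Tgfbr3 shared Il6st, the common receptor subunit of interleukin 6 family cytokines, among their nearest (0.96 and 0.95). Tgfbr2 was further closest to Zfp652 (0.95) and Tnfrsf21 (0.93), and Tgfbr3 to Marveld1 (0.96) and Cnn2 (0.95). For Ltbp3 the nearest were Suco (0.93), Trabd2b (0.90) and the proprotein convertase gene Furin (0.89), whose product cleaves TGF-beta precursors. For Ltbp4 they were Plec (0.96), Slco3a1 and Col18a1 (both 0.95), and for Ltbp2, which had no close partner, Serpina3n (0.83), Tox and Sbspon (both 0.82).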

How the data were processed

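Per the labels' protocols, sorted cells gave total RNA (integrity number at least 8.8), of which 6 ng was amplified and 100.0 ng of cDNA taken into each library. The authors deposited FPKM, 1 column per library. TopHat2 2.0.3, Cufflinks 2.1.1, Bowtie2 and the build mm10 are listed in the submitters' processing notes. For annotation, strand and filters the sources used here give nothing. Depth is unknown, since totals of 285981 to 515224 FPKM are not depths, so no counting interval is given. Of 280 values of the 10 genes, 3 were exact zeros. Malat1, a gene of every cell, was listed at 0 in 10 of 28 libraries, so a 0 can be a failed estimate.

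Of 23235 rows, 220 identical copies were dropped. The deposited FPKM were used unscaled. The 15052 genes that reached 1 FPKM in 2 or more libraries, all 10 genes among them, were fitted as log2(FPKM + 1) by limma 3.58.1 (R 4.3.3). The fit took every one of the 28 libraries, a mean for each population and a trended empirical Bayes step (14 residual and 5.7 prior degrees of freedom), after tests on simulated data. P-values were adjusted by Benjamini-Hochberg within each of 10 comparisons. The spread of a gene is thus shared by all populations. Tests are two-sided.

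The text names the 10 genes, the gate genes and, per pathway list and comparison, at most the 2 largest called changes each way among genes averaging 5 FPKM or more on the higher side. It also names the 3 genes nearest each gene in pattern. Of 16 listed latency genes Nrros was not analysed here and Mmp9 did not pass the filter on low values, and values of some genes are not reported here. The genes and lists were chosen with earlier results of these data known. Other pseudocounts, filters, quantile normalization, a replicate block, single-line fits, an untrended fit and leaving out each library were tried. Positions and promoter windows are RefSeq's, GRCm38.p6 (mm10).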

Additional observations from a re-analysis of the deposited data

How the results depend on the processing

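Values of single genes under alternative settings, 521 in all, were counted only for genes called in that comparison under at least 1 setting. Of these, 475 kept their direction and side of the threshold, 32 lost and 14 gained a call, and no direction turned. Genes never called in a comparison, where a direction turns most easily, were left out of this count. The count of the 10 genes called in DP against DF went from 1 to 3 with a replicate block (Ltbp3, 1.01, adjusted p = 0.0158, and Ltbp4, -1.07, adjusted p = 0.00578, were added), in Mc against DF from 7 to 4 with a pseudocount of 5, and in Neg from 1 to 2 with a pseudocount of 0.1, to 0 with a pseudocount of 5 and to 0 without a filter. The cause was not tested. Leaving out single libraries gave 1 to 2 calls (DP against DF), 3 to 4 (ORS against Epi), 1 to 3 (Mx against ORS), 0 to 2 (Neg, where 2 came without DP replicate 1), 5 to 7 (Mc against DF), 4 (HF-SC), 6 (mesenchyme) and 0 in the 3 remaining comparisons. In Mx against ORS Tgfb2 (-1.46, adjusted p = 0.0529) was called under 5 settings, for example with a replicate block (0.0263), and Ltbp3 with the block (0.00112) and when the line was fitted alone (0.0232). In Mc against DF the block added Tgfb1 (-1.32, adjusted p = 0.0237). Calls over all genes rose with the block too. They went from 1007 to 1421 in DP against DF and from 2738 to 3184 in Mc against DF. For Mx against ORS they went from 577 to 859, and to 688 when the line was fitted alone. Neg went from 600 to 615 with a pseudocount of 0.1 and to 539 without a filter.

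Over all genes, calls went with a pseudocount of 5 from 1007 to 668 (DP against DF), 2738 to 1695 (Mc), 3917 to 1907 (mesenchyme) and 600 to 244 (Neg). HF-SC against HF-ORS had 662, 1125 with the block and 108 when fitted alone. TAC against Mx had 191, 121 after quantile normalization and 336 with the block. G-DP against AA/ZZ-DP had 76, and 28 with a pseudocount of 0.1, 47 without a filter and 22 alone. G/AA-DP against ZZ-DP had 1, and 4 without a filter and 5 alone. Leaving out single libraries gave 522 (without DF replicate 1) to 1003 in DP against DF, where 603 came without DP replicate 1. It gave 312 (without HF-ORS replicate 1) to 751 in HF-SC against HF-ORS, where 392 came without HF-SC replicate 2, and 942 (without ORS replicate 2) to 1058 in ORS against Epi. Mx against ORS (577) had 192 without Mx replicate 2, 228 and 316 without ORS replicate 2 and 1, and at most 409. TAC against Mx had 51 and 61 without Mx replicate 1 and 2, and 74 and 84 without TAC replicate 1 and 2. Neg had 277 and 339 without Neg replicate 2 and 1, and at most 634. G-DP against AA/ZZ-DP had 274 and 26 without G-DP replicate 1 and 2, and 49 and 13 without AA/ZZ-DP replicate 1 and 2. G/AA-DP against ZZ-DP had 17 without ZZ-DP replicate 1 and 5 without G/AA-DP replicate 2. Mc against DF (1981 to 2284) and the mesenchyme (3468 to 4340) moved by less than 1.5 times. Same-numbered libraries deviated together at r = 0.057 to 0.275 in the K14-H2BGFP line (27 of 28 pairs over 0.1), 0.285 in Sox2-GFP mice, 0.283 in Crabp1-GFP mice and 0.071 in K14-RFP Sox9-GFP mice, and between lines at 0.038 to 0.291 (34 of 60 over 0.1). The numbers were to count as pairing only if every pair passed 0.1, which was not met, and the fit without a block was kept. Low values such as those of Ltbp2 depend most on the pseudocount, and with FPKM alone depth sets no bound on them.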
